A study of Mus musculus with 12 samples.

Results

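Arrays of mouse olfactory epithelium hold 34 genes, of 19937 measured, that met a set limit of fit to a 24 h cosine. Their fitted maximum lies in the later subjective night, from CT16 to under CT24. This tissue, at the back of the nose, holds the odour-sensing neurons together with supporting, basal and gland cells. The tissue came from 48 male C57BL/6 mice, with no further allele or agent, that had lived in 12 h of light and 12 h of darkness for at least 14 days. They were then moved to constant darkness and killed every 4 h, beginning at circadian time (CT) 12, which was 24 h after the last lights off. Subjective day, when mice rest, runs from CT0 to CT12, and subjective night from CT12 to CT24. Sampling ended at CT56, and each of 12 times is 1 pool of total RNA from 4 mice on 1 array, so each of 6 phases of the day has 2 pools, taken 24 h apart. Values are the deposited log2 intensities, on which a difference of 1 is a doubling. In bulk tissue, fewer cells of a type and less RNA per cell cannot be told apart.

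The members were chosen from these same values. For each gene the 12 log2 values were fitted by least squares with a cosine and a sine of 24 h, and a gene was taken where the fit held a share of the variance (R squared) of 0.64 or more. Odorant, vomeronasal and trace amine receptor genes, small nucleolar RNA genes, predicted genes and 8 genes named in the rule were left out by name. Of 19937 genes, 39 met both limits (0.196% of genes tested), and 5 of them, Arntl, Cd44, Kirrel2, Rasgrp4 and Adgrf1, were then left out. At any peak time 164 genes reached an R squared of 0.64 (0.823% of genes tested). For 12 pools that limit equals an unadjusted p of 0.0101 in an ordinary F test, which would pass 200.9 of 19937 genes in data without a rhythm. None of the 34 passed an adjusted p of 0.05 in limma, where 5 genes did (0.0251% of genes tested), and the smallest adjusted p among them was 0.129, for Slc37a2. At an unadjusted p under 0.05 in limma, 29 of the 34 passed, and 706 of all genes (3.54%). The fit that chose the genes is the one behind all of these counts, so amplitudes and peak times are given as a description.

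The mammalian clock is a loop in which the activators BMAL1 (gene Arntl) and CLOCK bind E-box sequences and switch on their own repressors. A side arm sets the late night: REV-ERB proteins repress, and ROR proteins activate, genes with ROR response elements, so that such genes, Arntl first among them, usually stand highest when REV-ERB is scarce. Many other genes follow the clock indirectly, through hormones, feeding and activity. In the olfactory epithelium sensory neurons turn odours into current by cyclic AMP, while supporting cells hold enzymes that clear foreign chemicals. Markers of this tissue were bright on all arrays. Omp, the olfactory marker protein, read 12.70 to 13.08, and Cyp2g1, a supporting cell enzyme, 13.64 to 13.79, where array values ended at 14.47.

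The mean of the 34 members, each taken as a deviation from its own mean, rose and fell once per cycle, as the rule leads it to. It stood at -0.12 at CT12, 0.10 at CT16, 0.11 at CT20, 0.10 at CT24, -0.04 at CT28 and -0.12 at CT32. In the second cycle it stood at -0.14 at CT36, 0.11 at CT40, 0.12 at CT44, 0.14 at CT48, -0.07 at CT52 and -0.20 at CT56. The step from low to high thus lay between CT12 and CT16 in both cycles, and the high part spanned 3 time points. Single genes were above their own mean in 33 of 34 cases at CT20 and at CT44, and in 0 of 34 at CT56. Over all genes those shares were 59.9% at CT20, 42.5% at CT44 and 42.9% at CT56. The highest value of a gene fell at CT16 or CT40 in 11 cases, at CT20 or CT44 in 12, at CT24 or CT48 in 10, and at CT28 in 1, Rerg. CT48 alone held 9 of them, and the highest value of 6.7% of all genes. The lowest fell at CT32 or CT56 in 19 cases (26.5% of all genes), at CT12 or CT36 in 12 (19.5% of all genes) and at CT52 in 3. In 17 of the 34 genes the 6 pools of CT16, CT20, CT24 and their partners 24 h later all lay above the other 6, which was so for 66 of all genes (0.331%). The rule favours all of these patterns, and nothing is read from any of these counts.

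**Figure D1:**
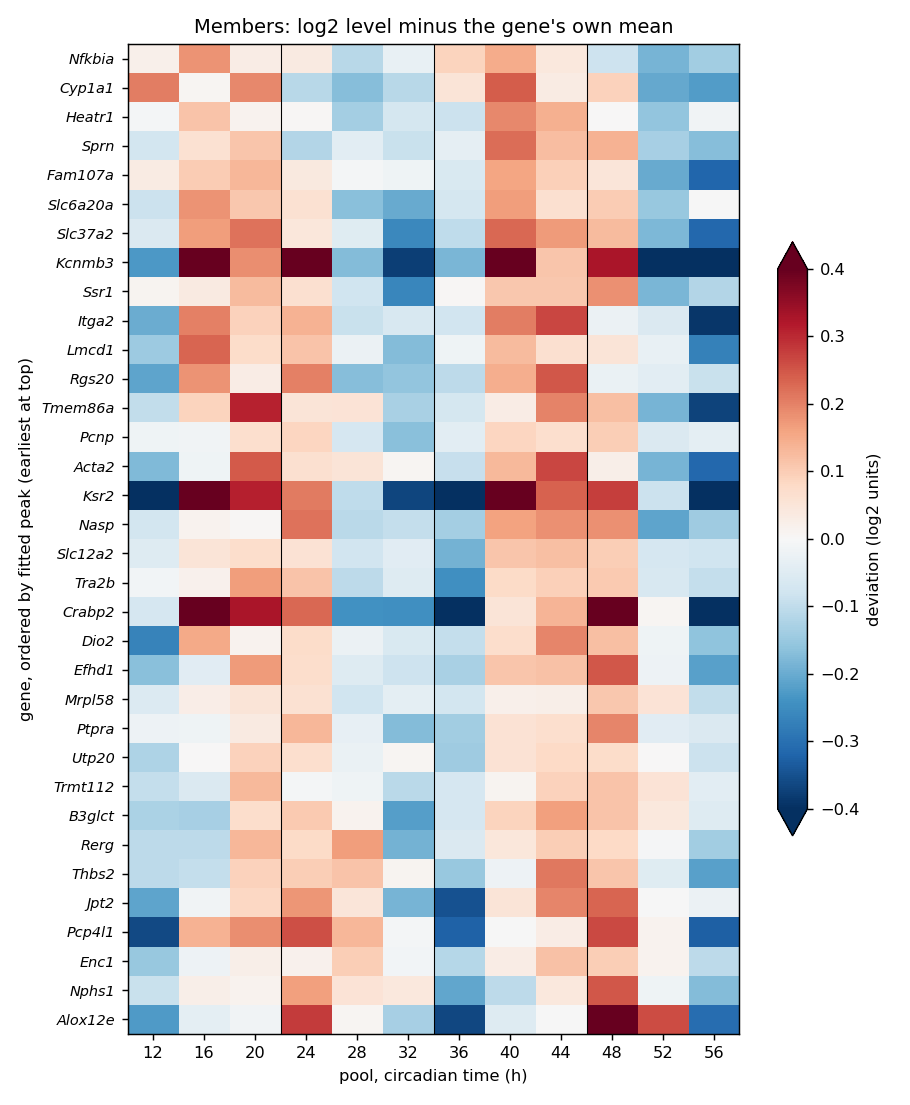
Each row is 1 of the 34 genes, ordered by fitted peak time, and each column 1 pool from CT12 to CT56. Colour gives the log2 level minus the gene's own mean, with the scale ending at -0.4 and 0.4. Red fills CT16 to CT24 and CT40 to CT48, and no gene is above its own mean in the CT56 column.

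Fitted amplitudes, the distance from mean to peak on the log2 scale, ran from 0.07 to 0.51 with a median of 0.15. The median gene therefore stood 1.24-fold higher at its fitted peak than at its trough, and the range of that ratio was 1.11 to 2.03. Over all genes the median amplitude was 0.06. Amplitudes of 0.3 or more were found in 4 members, and of 0.2 or more in 9. Fitted peaks lay from CT16 to under CT18 in 3 genes, from CT18 to under CT20 in 9, from CT20 to under CT22 in 13 and from CT22 to under CT24 in 9. Genes with an R squared of 0.64 or more were more frequent around the middle of the day, with 56 peaking from CT4 to under CT8 and 53 from CT8 to under CT12. Their median amplitudes were 0.20 and 0.16. From CT0 to under CT4 there were 8, and 8 from CT12 to under CT16.

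**Figure D2:**
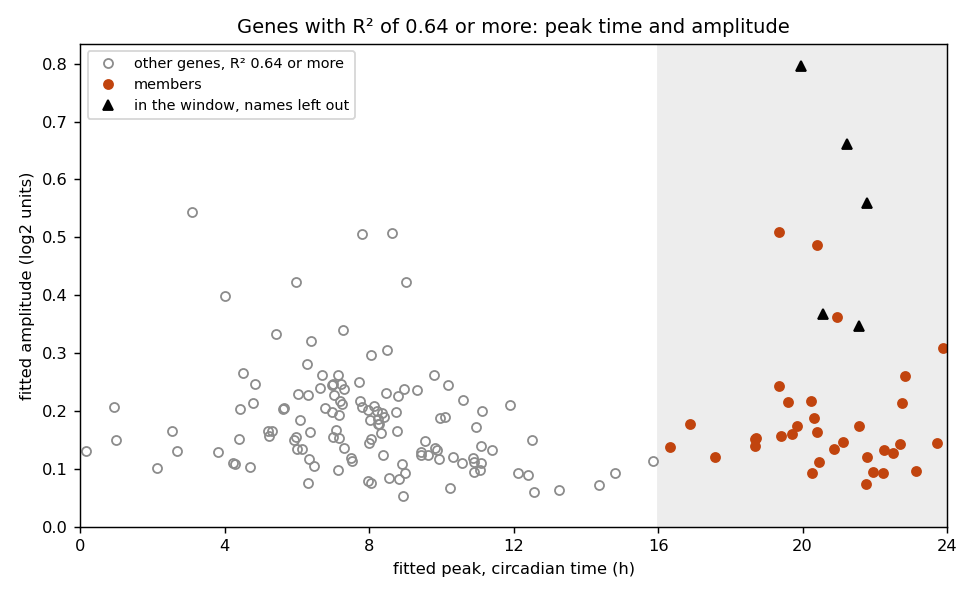
Each point is a gene with an R squared of 0.64 or more, placed by fitted peak time (horizontal, circadian hours) and fitted amplitude (vertical, log2 units). Filled circles are the 34 members in the shaded window, triangles the 5 genes left out by name, and open circles the 125 genes outside it, most of which peak between CT4 and CT12.

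The limits of the rule cut through a continuous range. Just inside the R squared limit stood Acta2 (0.642), Nasp (0.645), Cyp1a1 (0.647) and Dio2 (0.650). Just outside it stood Ccdc141 (0.636), Zfp180 (0.636), Zc3h8 (0.634) and H2-M10.3 (0.634), of which Ccdc141 and H2-M10.3 had amplitudes of 0.32 and 0.41, above most members. At the early edge Nfkbia (CT 16.3) and Cyp1a1 (CT 16.9) were inside, and Adh1 (CT 15.9) and Tex47 (CT 14.8) outside. At the late edge Nphs1 (CT 23.7) and Alox12e (CT 23.9) were inside, and Npnt (CT 0.1) and Il1rl2 (CT 0.9) outside.

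Promoters of the members were taken from RefSeq, assembly GRCm38.p6, as windows from 250 bases before to 50 after a transcription start, and 29 of 34 genes were listed, with 31 windows. Motifs were searched on both strands. The ROR and REV-ERB core AGGTCA occurred in 1 member window, beside 16.3% of all 32851 windows, and its longer forms TAGGTCA and the extended ROR site, which contain it, in 0, beside 2.61% and 0.219%. The E-box CACGTG occurred in 2 windows (6.45%, beside 7.15% of all), the variant CACGTT in 1 (beside 4.68%) and the D-box TTANGTAA in 0 (beside 2.32%). The cyclic AMP element TGACGTCA occurred in 2 (6.45%, beside 1.79% of all), and the core CCCNNGGG of the olfactory EBF factors in 5 (16.1%, beside 13.7%). Member windows were richer in G and C, with a median of 60.7% beside 52.7%. The windows set beside them were all those listed, with no names left out and no choice by level. Members were mostly bright genes, at a median level percentile of 77.2 of all genes measured. The sets are thus unlike, and these shares are not read as traits of the members. Counts this small are a description, and a window without a match says only that these letters are not in it.

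The windows printed are those of Slc37a2, whose values lay closest to a cosine and whose window holds none of the clock motifs, and of the 6 members that hold a clock or cyclic AMP motif. Each is 5′ to 3′ on the gene's strand, with any match on either strand to the ROR core, the E-box, its variant or the cyclic AMP element in capitals.
Slc37a2, chr9:37255689-37255988, minus strand: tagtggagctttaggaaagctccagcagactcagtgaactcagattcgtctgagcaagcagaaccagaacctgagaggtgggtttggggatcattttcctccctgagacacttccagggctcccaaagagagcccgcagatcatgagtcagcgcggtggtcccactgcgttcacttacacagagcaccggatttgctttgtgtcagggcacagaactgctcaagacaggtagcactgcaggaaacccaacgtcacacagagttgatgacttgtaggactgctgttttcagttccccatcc
Ssr1, chr13:37994159-37994458, minus strand: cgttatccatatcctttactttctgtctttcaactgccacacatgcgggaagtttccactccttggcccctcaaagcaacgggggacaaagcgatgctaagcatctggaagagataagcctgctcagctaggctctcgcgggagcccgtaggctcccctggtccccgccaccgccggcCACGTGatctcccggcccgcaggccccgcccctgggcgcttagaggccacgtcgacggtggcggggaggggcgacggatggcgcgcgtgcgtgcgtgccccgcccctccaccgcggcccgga
Utp20, chr10:88826765-88827064, minus strand: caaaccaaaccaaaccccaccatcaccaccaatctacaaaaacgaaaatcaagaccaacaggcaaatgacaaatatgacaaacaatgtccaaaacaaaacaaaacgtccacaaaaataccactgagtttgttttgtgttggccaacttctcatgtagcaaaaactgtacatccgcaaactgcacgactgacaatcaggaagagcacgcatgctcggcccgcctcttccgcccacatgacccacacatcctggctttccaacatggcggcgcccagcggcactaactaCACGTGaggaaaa
Tmem86a, chr7:47050390-47050689, plus strand: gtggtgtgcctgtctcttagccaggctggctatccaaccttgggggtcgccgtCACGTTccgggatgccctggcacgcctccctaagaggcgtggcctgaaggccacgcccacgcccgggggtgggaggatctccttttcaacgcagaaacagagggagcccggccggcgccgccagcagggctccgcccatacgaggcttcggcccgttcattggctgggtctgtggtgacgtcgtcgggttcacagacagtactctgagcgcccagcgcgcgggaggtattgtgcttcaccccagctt
B3glct, chr5:149677980-149678279, plus strand: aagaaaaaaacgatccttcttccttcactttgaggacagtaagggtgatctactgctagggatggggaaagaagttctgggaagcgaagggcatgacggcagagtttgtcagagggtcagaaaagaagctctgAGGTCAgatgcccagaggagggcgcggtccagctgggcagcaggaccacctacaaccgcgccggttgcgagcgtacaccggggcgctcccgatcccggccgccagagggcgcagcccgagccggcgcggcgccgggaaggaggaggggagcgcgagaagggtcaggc
Lmcd1, chr6:112273508-112273807, plus strand: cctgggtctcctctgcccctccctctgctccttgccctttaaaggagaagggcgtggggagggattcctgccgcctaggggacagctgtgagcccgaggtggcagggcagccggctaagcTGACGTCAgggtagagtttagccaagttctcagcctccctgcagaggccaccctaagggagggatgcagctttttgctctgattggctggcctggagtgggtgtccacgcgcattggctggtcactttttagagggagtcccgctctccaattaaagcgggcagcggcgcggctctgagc
Dio2, chr12:90738989-90739288, minus strand: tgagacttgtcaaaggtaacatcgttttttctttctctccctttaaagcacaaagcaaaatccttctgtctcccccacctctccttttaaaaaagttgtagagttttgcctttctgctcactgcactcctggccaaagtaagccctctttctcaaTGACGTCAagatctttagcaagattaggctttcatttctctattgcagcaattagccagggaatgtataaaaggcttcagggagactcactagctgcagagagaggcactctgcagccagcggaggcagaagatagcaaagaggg
Counted from the start, with negative bases before it, the E-box begins at base -72 in Ssr1 and at base 38 in Utp20, and the CACGTT of Tmem86a at base -197. The AGGTCA of B3glct begins at base -117. TGACGTCA begins at base -130 in Lmcd1 and at base -95 in Dio2.

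The 2 largest amplitudes belonged to genes of excitability and kinase signalling. Kcnmb3 encodes an auxiliary subunit of the large-conductance potassium channel, which opens on calcium and voltage. It read 10.57 at CT12, 11.54 at CT16, 10.99 at CT20, 11.23 at CT24, 10.63 at CT28 and 10.42 at CT32. In the second cycle it read 10.62 at CT36, 11.24 at CT40, 10.91 at CT44, 11.13 at CT48, 10.39 at CT52 and 9.93 at CT56. The high and low pools did not overlap, since the lowest of the 6 high pools, at CT44, was above the highest of the others, at CT28. Its amplitude was 0.51 ± 0.10 (SE, 12 pools) with a peak at CT 19.3, a 2.03-fold span from trough to peak.

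Ksr2 encodes a scaffold that holds the kinases RAF, MEK and ERK together. It read 9.30 at CT12, 10.58 at CT16, 10.20 at CT20, 10.10 at CT24, 9.79 at CT28 and 9.52 at CT32. A day later it read 9.24 at CT36, 10.40 at CT40, 10.13 at CT44, 10.17 at CT48, 9.81 at CT52 and 9.46 at CT56. Both cycles showed a jump of over 1 log2 unit between CT12 and CT16, and the high and low pools did not overlap. The amplitude was 0.49 ± 0.10 (SE, 12 pools), with a peak at CT 20.4. Pcp4l1, a small relative of the calmodulin-binding protein PCP4, read 12.33, 12.83, 12.88, 12.95, 12.83 and 12.68 from CT12 to CT32, and 12.37, 12.69, 12.72, 12.96, 12.71 and 12.37 from CT36 to CT56. CT24 and CT48 were the highest of their cycles, and CT12, CT36 and CT56 the lowest pools (amplitude 0.26 ± 0.05, peak at CT 22.8).

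Smaller waves came from other signalling and membrane genes. Jpt2, a protein that binds the calcium-releasing messenger NAADP, read 9.37, 9.57, 9.67, 9.76, 9.63 and 9.40 from CT12 to CT32, and 9.24, 9.64, 9.78, 9.82, 9.58 and 9.56 from CT36 to CT56. CT24 and CT48 were again the highest of their cycles (amplitude 0.21 ± 0.04, peak at CT 22.7). Efhd1, a calcium-binding protein of mitochondria, ranged from 7.36 at CT56 to 7.83 at CT48 (median 7.54, amplitude 0.17 ± 0.04, peak at CT 21.6). Rgs20, which switches off inhibitory G proteins, ranged from 7.05 at CT12 to 7.51 at CT44 (median 7.23, amplitude 0.17 ± 0.05, peak at CT 19.8). The chloride importer Slc12a2, which loads sensory neurons with the chloride that carries part of the odour current, ranged from 11.90 at CT36 to 12.21 at CT44. Its 6 high pools, from 12.14 upwards, lay above its 6 low pools, which ended at 12.05 (amplitude 0.11 ± 0.04, peak at CT 20.5). Ptpra, a receptor-type tyrosine phosphatase, ranged from 9.45 at CT32 to 9.82 at CT48 (0.12 ± 0.04, CT 21.8). Slc6a20a, a proline transporter, ranged from 8.91 at CT32 to 9.29 at CT16 without overlap of high and low pools (0.15 ± 0.04, CT 18.7). Enc1, an actin-binding protein of neural cells, peaked at CT 23.1 (amplitude 0.10 ± 0.04), and Sprn, a neural protein related to the prion protein, at CT 18.7 (0.14 ± 0.04). Fam107a, a stress-induced actin-binding protein, ranged from 9.87 at CT56 to 10.34 at CT40 (0.15 ± 0.04, CT 18.7), and its pools at CT52 and CT56 were the lowest. Rerg, a small GTPase of the RAS family, peaked at CT 22.5 (0.13 ± 0.04).

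**Figure D3:**
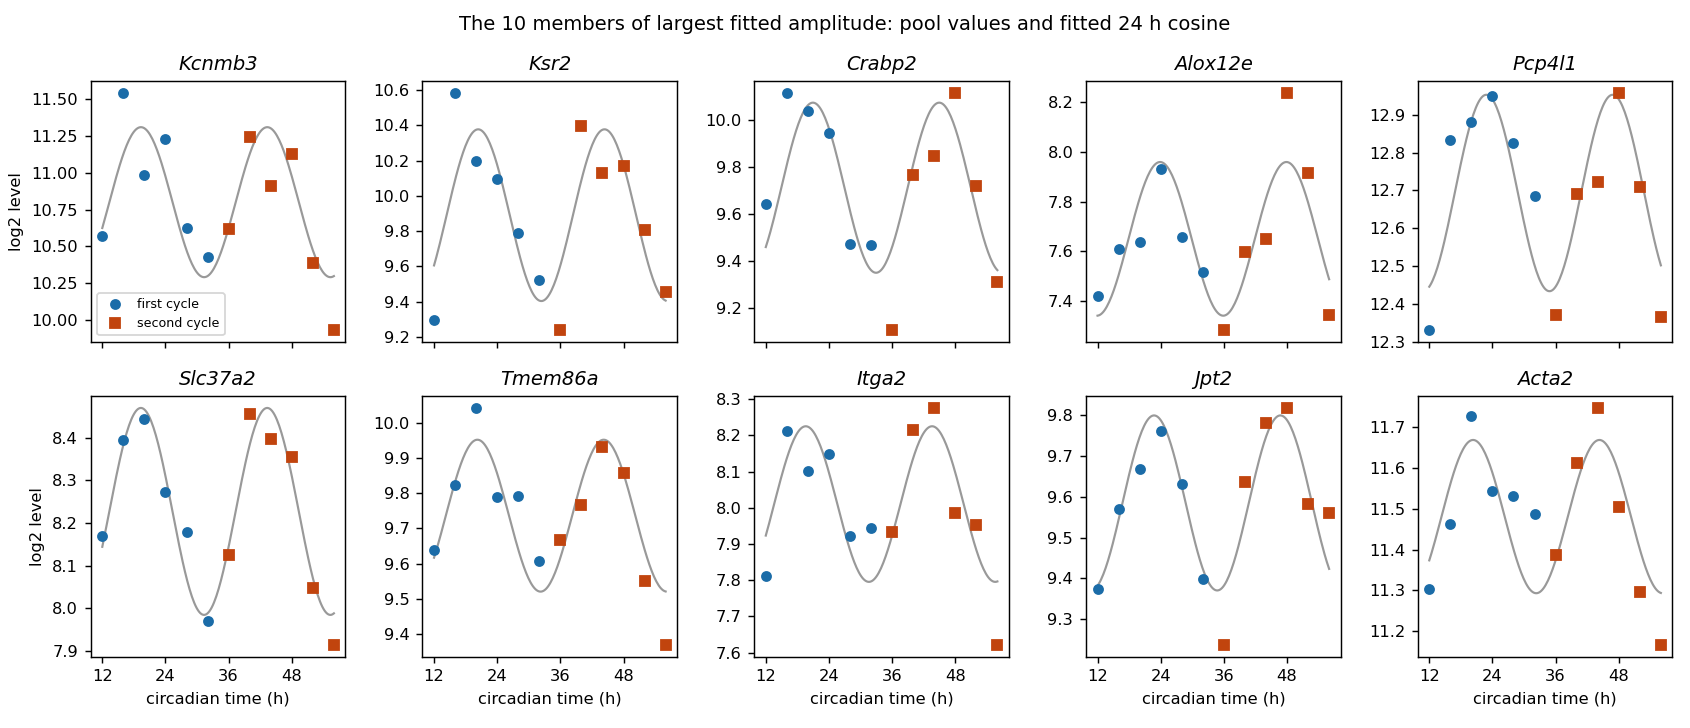
Panels show the 10 genes of largest amplitude, with log2 level (vertical, own scale per gene) against circadian time (horizontal, hours). Circles are the 6 pools of the first cycle, squares those of the second and the grey line the fitted 24 h cosine. Kcnmb3 and Ksr2 jump between CT12 and CT16 in both cycles, while Slc37a2 lies close to its line throughout.

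Hormone, lipid and detoxification genes formed the next group. Crabp2 carries retinoic acid, a signal made from vitamin A, to its nuclear receptors. It read 9.65 at CT12, 10.12 at CT16, 10.04 at CT20, 9.94 at CT24, 9.47 at CT28 and 9.47 at CT32. In the second cycle the values were 9.11 at CT36, 9.77 at CT40, 9.85 at CT44, 10.12 at CT48, 9.72 at CT52 and 9.31 at CT56. High and low pools did not overlap, but the cycles were shaped differently, with a fitted peak at CT 18.9 in the first and at CT 22.5 in the second. Over both cycles its amplitude was 0.36 ± 0.07 (SE, 12 pools).

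Alox12e encodes a lipoxygenase that oxidises arachidonic acid. It read 7.42 at CT12, 7.61 at CT16, 7.64 at CT20, 7.93 at CT24, 7.66 at CT28 and 7.52 at CT32. It then read 7.29 at CT36, 7.60 at CT40, 7.65 at CT44, 8.24 at CT48, 7.91 at CT52 and 7.35 at CT56. CT24 and CT48 were the highest of their cycles, but high and low pools overlapped, since CT52 lay above 4 of the 6 pools that were high in other members (amplitude 0.31 ± 0.06, peak at CT 23.9).

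Slc37a2, an exchanger of sugar phosphate for phosphate in the endoplasmic reticulum, lay closest to a cosine, with an R squared of 0.914. It read 8.17 at CT12, 8.40 at CT16, 8.44 at CT20, 8.27 at CT24, 8.18 at CT28 and 7.97 at CT32. A day later it read 8.12 at CT36, 8.46 at CT40, 8.40 at CT44, 8.36 at CT48, 8.05 at CT52 and 7.91 at CT56. High and low pools did not overlap, and the peak fell at CT 19.4 in the first cycle and CT 19.3 in the second (amplitude over both 0.24 ± 0.04). Arntl, the reference gene of this phase, had an R squared of 0.926 and peaked at CT 21.6 (amplitude 0.35 ± 0.04).

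Tmem86a, an enzyme that breaks down lysoplasmalogen lipids, read 9.64, 9.83, 10.04, 9.79, 9.79 and 9.61 from CT12 to CT32, and 9.67, 9.77, 9.93, 9.86, 9.55 and 9.37 from CT36 to CT56. CT20 and CT44 were its highest pools in their cycles, and CT56 was the lowest of all (amplitude 0.22 ± 0.04, peak at CT 20.2). Cyp1a1, an enzyme that oxidises foreign chemicals and is induced through the Ah receptor, ranged from 9.88 at CT56 to 10.35 at CT40. Its high and low pools overlapped, since CT12 read 10.31 (amplitude 0.18 ± 0.05, peak at CT 16.9). Dio2, the enzyme that activates thyroid hormone inside cells and 1 of the 2 genes with TGACGTCA, ranged from 7.77 at CT12 to 8.23 at CT44 (median 8.03). Its 6 high pools began at 8.05 and its low pools ended at 8.02, so they were separate by a narrow margin (0.15 ± 0.04, CT 21.1). Nfkbia encodes the inhibitor that holds the inflammatory factor NF-kappaB in the cytoplasm. It was the earliest member, ranging from 9.04 at CT52 to 9.40 at CT16 (amplitude 0.14 ± 0.04, peak at CT 16.3, R squared 0.807).

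Adhesion, matrix and contractile genes formed another group. Itga2, a subunit of a collagen-binding integrin, read 7.81, 8.21, 8.10, 8.15, 7.92 and 7.94 from CT12 to CT32, and 7.93, 8.21, 8.28, 7.99, 7.95 and 7.62 from CT36 to CT56. CT56 was its lowest pool, and the high and low pools did not overlap (amplitude 0.22 ± 0.05, peak at CT 19.6). Acta2, the actin of smooth muscle, read 11.30, 11.46, 11.73, 11.54, 11.53 and 11.49 from CT12 to CT32, and 11.39, 11.61, 11.75, 11.50, 11.30 and 11.17 from CT36 to CT56. CT20 and CT44 were the highest, and the fitted peak moved from CT 22.6 in the first cycle to CT 19.2 in the second (amplitude over both 0.19 ± 0.05). Thbs2, a matrix thrombospondin, ranged from 8.29 at CT56 to 8.71 at CT44 (0.14 ± 0.04, CT 22.7). B3glct, which adds glucose to the sugar on thrombospondin repeats, ranged from 7.68 at CT32 to 8.07 at CT44 (0.13 ± 0.04, CT 22.3). Lmcd1, a LIM protein that restrains GATA factors and the other gene with TGACGTCA, ranged from 7.92 at CT56 to 8.42 at CT16 without overlap (0.16 ± 0.04, CT 19.7). Its profile over the 12 pools was the one most like that of Kcnmb3, with a Pearson correlation of 0.943, a description of 2 profiles chosen by the same rule. Nphs1 encodes nephrin, an adhesion protein that binds the Kirrel family, and peaked at CT 23.7 (amplitude 0.14 ± 0.04).

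Genes of RNA processing, ribosomes and protein export closed the list, with amplitudes of 0.16 or less. Ssr1, a subunit of the translocon-associated complex through which secreted proteins are threaded, ranged from 11.36 at CT32 to 11.81 at CT48 (0.16 ± 0.04, CT 19.4). Its 6 high pools began at 11.66 and its low pools ended at 11.64. Heatr1 and Utp20 encode parts of the particle that assembles the small ribosomal subunit, and peaked at CT 17.6 (amplitude 0.12 ± 0.04) and CT 21.9 (0.09 ± 0.04). Trmt112, a partner that activates RNA and protein methyltransferases, had one of 0.09 ± 0.04 at CT 22.2. Mrpl58, which frees stalled mitochondrial ribosomes, had the smallest of all members, 0.07 ± 0.04 at CT 21.8. Tra2b, a splicing activator, ranged from 10.97 at CT36 to 11.38 at CT20 (0.13 ± 0.04, CT 20.9). Nasp, a histone chaperone, ranged from 7.33 at CT52 to 7.76 at CT24 (0.16 ± 0.05, CT 20.4), and Pcnp, a nuclear protein, from 10.75 at CT32 to 11.01 at CT48 (0.09 ± 0.04, CT 20.3).

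Other probes of the same genes were a further reading of the same pools, and 4 members had any. For Tra2b the second probe, at a mean level of 9.85, gave 0.15 for the amplitude and CT 21.0 for the peak, beside 0.13 and CT 20.9 for the first, though its R squared was 0.357. For Trmt112 the second probe gave 0.10 and CT 23.7, and the third 0.05 and CT 1.5. For Pcnp the second probe peaked at CT 2.9 with an R squared of 0.148, and for Nphs1 at CT 18.6 with one of 0.106. None of the 5 further probes thus reached 0.64.

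The second cycle was set against the first with phase as a factor, which asks whether levels drifted in constant darkness. No member passed in limma, nor did any gene (0% of 19937). At an unadjusted p under 0.05, 1 of 34 members passed, beside 2625 of all genes (13.2%, with 4.22% higher and 8.94% lower in the second cycle). That member was Kcnmb3, lower in the second cycle by -0.19 ± 0.07 (SE; means of 10.90 and 10.70; limma, adjusted p = 0.315). The smallest adjusted p among members ran from 0.141 to 0.6995 over 20 alternatives. Members were split evenly, with 17 of 34 higher in the second cycle and a median difference of 0.002, while 38.3% of all genes were higher. A gene with a large drift cannot reach the R squared limit, so small differences are built into the list. The labels do not say whether arrays were run in batches, so time in darkness and such a batch cannot be told apart.

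A 12 h wave was fitted beside the 24 h terms. The R squared limit bounds its size in members, and it was fitted with the members' profiles known. No member passed in limma and no gene did (0% of 19937). At an unadjusted p under 0.05 it was 2 of 34 members, with 1063 of all genes (5.33%). Ksr2 had a 12 h amplitude of 0.26 ± 0.07 and Kcnmb3 one of 0.24 ± 0.08 (SE, 12 pools; limma, adjusted p = 0.817 for each). With arrays weighted by their quality Kcnmb3 passed, with 0.39 (limma, adjusted p = 0.0493), 1 of 68 genes called (0.341%), and 28.4% of all genes had an unadjusted p under 0.05. The estimate of those weights, from 0.14 to 8.01, did not converge, so nothing is read from that call. Over the 20 alternatives the smallest adjusted p among members ran from 0.0493 to 1.00.

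Each cycle of 6 pools was then fitted alone. The first cycle placed 30 of the 34 peaks inside the window and the second 33, with 29 inside in both. Peaks of the 2 cycles lay 0.85 h apart in the median and at most 3.89 h apart. Amplitudes had a median of 0.14 in the first cycle and 0.18 in the second, and were larger in the second for 25 genes. Since both cycles helped to choose the genes, their likeness is no check of the rhythm.

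**Figure D4:**
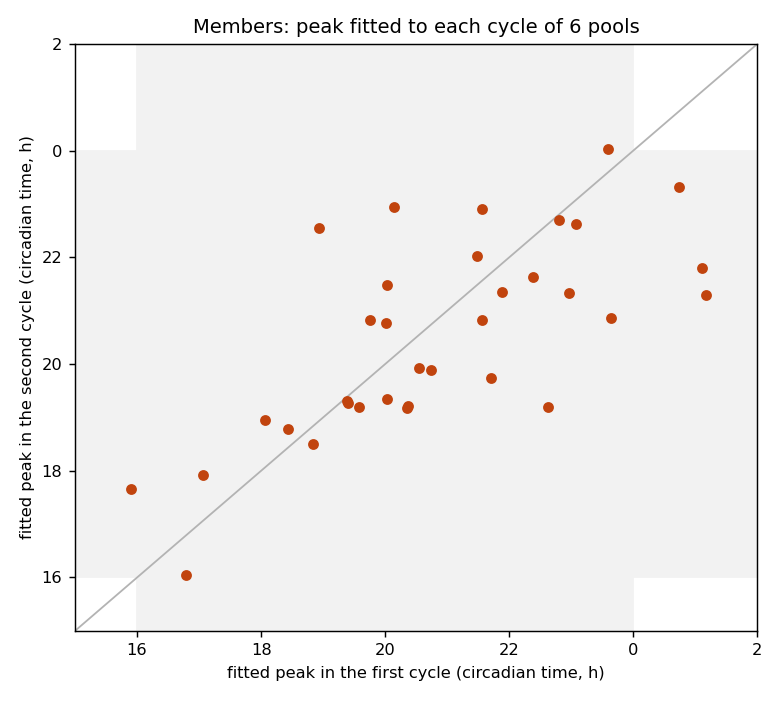
Each point is 1 of the 34 members, with the peak fitted to the 6 pools of the first cycle (horizontal) and of the second cycle (vertical), in circadian hours. Shading marks the window from CT16 to CT24 on each axis and the line equal times. Most points lie inside both, 29 in all, and the gap is largest at 3.89 h.

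A check on values the choice did not use is to pick genes in 1 cycle and read them in the other. With the same limits and the same names left out, 627 of 17443 genes were chosen in the first cycle and 779 in the second. They shared 66 genes, 10.5% of the first list and 8.47% of the second, while 4.47% of all 17443 genes met the limits in the second cycle and 3.59% in the first. Of the genes chosen in the first cycle, 38.8% had a second cycle peak in the window, against 31.9% of all. Their second cycle difference, the mean of CT40, CT44 and CT48 minus that of CT36, CT52 and CT56, had a median of -0.020, against -0.019 over all genes, and 45.3% were above 0, against 45.1% of all. Of the genes chosen in the second cycle, 34.9% had a first cycle peak in the window, against 30.9% of all. Their first cycle difference had a median of 0.004, against -0.008 over all genes, and 51.9% were above 0, against 46.0% of all. Fits to 6 points are loose, and genes share variation between pools, so no p is given. The same R squared limit is also easier to reach with 6 pools than with all pools, so it is looser in effect here. Members were 25 of the 627 genes chosen in the first cycle and 32 of the 779 chosen in the second. Both lists thus held mostly other genes, so these shares describe the rule within single cycles and say little about the members.

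Single pools bear on which genes are members. The pool at CT56 had the lowest mean correlation with the others over all probes, 0.975, followed by CT32 at 0.981, and both lie where these genes are low. CT56 held the lowest value of 12 members, beside 19.5% of all genes. Without CT56, 21 of the 34 genes still met the rule, and without CT32 30 did. Among the 13 lost without CT56 were the 4 genes of largest amplitude, Kcnmb3, Ksr2, Crabp2 and Alox12e. The first 3 then had R squared values of 0.631, 0.635 and 0.627, and the fitted peak of Alox12e moved to CT 0.2. Without both pools 23 met it. With each of the 12 pools left out in turn, between 21 and 31 members remained, and 15 did so in all 12 cases. These were Pcp4l1, Slc37a2, Tmem86a, Itga2, Jpt2, Efhd1, Ssr1, Slc6a20a, B3glct, Heatr1, Ptpra, Slc12a2, Utp20, Pcnp and Trmt112. The fits with a pool left out reused the other pools that chose the genes, so staying in the list is no check of the rhythm. Other settings lost some of these 15. Quantile normalization lost B3glct, Ptpra, Utp20, Pcnp and Trmt112, and median centring B3glct, Heatr1, Ptpra and Pcnp. The mean of all probes lost Pcnp and Trmt112. A period of 22 h lost Trmt112, and one of 26 h Itga2 and B3glct. The median amplitude of the 34 stayed between 0.14 and 0.16.

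**Figure D5:**
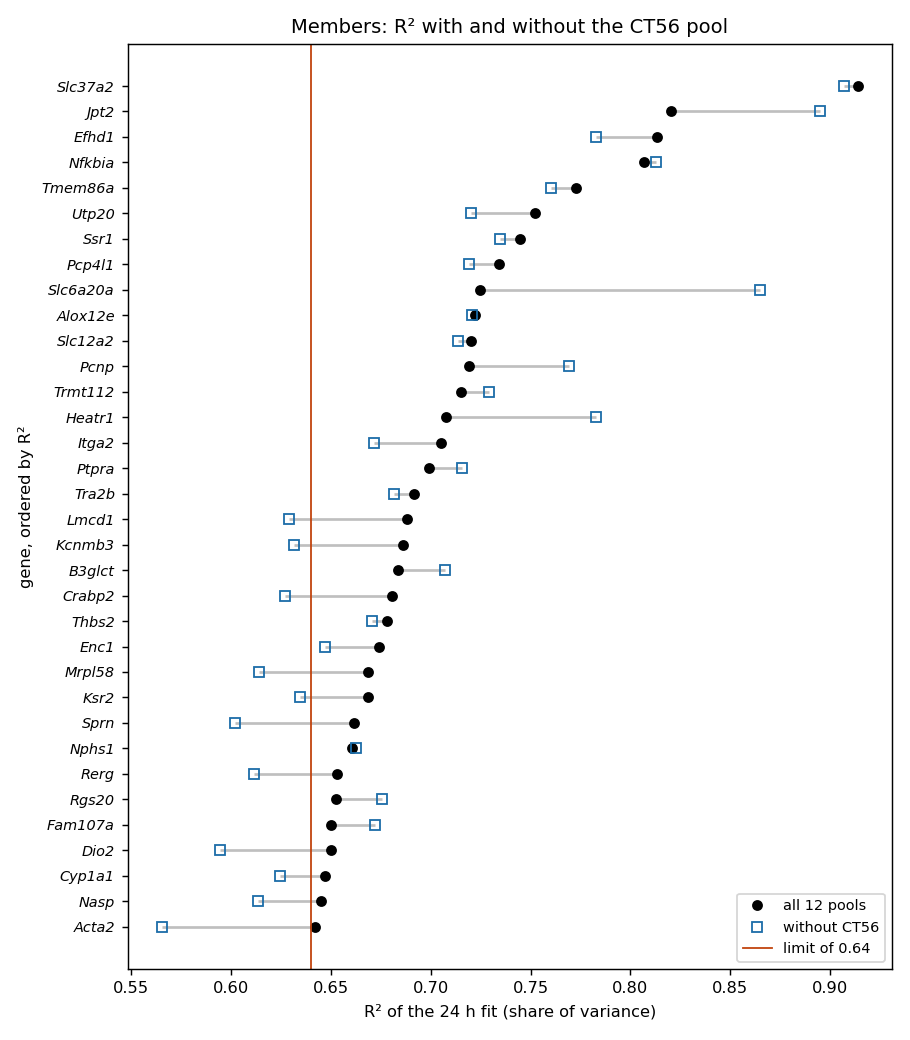
For each of the 34 members (vertical, ordered by R squared) the filled point gives the R squared of the 24 h fit with all 12 pools and the open square that without CT56. The vertical line marks the limit of 0.64. Without CT56, 23 of the 34 stay at or above it, of which 21 also keep their peak in the window.

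The rule applied afresh under other settings drew other lists. Without CT56 it found 78 genes and without CT32 121, of which 21 and 30 were among the 34. Without CT44 it found 63, with 28 of the 34, and without CT32 and CT56 together 413, with 23. With quantile normalization across pools it found 99, with 23 of the 34. With a period of 22 h it found 26 genes and with one of 26 h 23, each with 19 of the 34. Fewer pools make an R squared of 0.64 easier to reach, since the limit equals an unadjusted p of 0.0168 with 11 pools and 0.0280 with 10. At any peak time 1.93% of genes reached it without CT56, 1.49% without CT32 and 4.68% without both.

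Genes of the ROR and REV-ERB arm, from a list chosen with earlier results known, were compared with the members because they share this phase in other tissues. Of 8 listed, 5 were measured. Arntl alone passed in limma (adjusted p = 0.0141, beside 0.0251% of all genes), and it alone reached an R squared of 0.64. Clock, the partner of BMAL1, had an amplitude of 0.07 ± 0.05, Cry1, a repressor, 0.07 ± 0.06, Nfil3, a repressor of D-box genes, 0.02 ± 0.05, and E2f8, a cell cycle factor, 0.05 ± 0.06.

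Partners of the members by function, 144 genes in 19 lists picked for what they do and not for how they moved, gave 133 measured genes. Of these 0 passed in limma and for 11 the unadjusted p was under 0.05, beside 3.54% of all genes. An R squared of 0.64 was reached by 1, Gnaz, the G protein that Rgs20 switches off, which peaked at CT 7.5 (amplitude 0.11 ± 0.04). The fitted peak lay in the window for 53 of 133 (39.8%, beside 26.1% of all genes), and the median amplitude was 0.06 in both sets. Among 27 further genes of the small subunit particle, 17 had a peak in the window and 20 a higher mean in the 6 high pools, which 76 of all 133 partners and 40.3% of all genes had. The 1 with an unadjusted p under 0.05 was Fbl, which methylates ribosomal RNA (amplitude 0.12 ± 0.04, CT 18.5; limma, adjusted p = 0.996).

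Among 9 measured splicing factors akin to Tra2b, 5 had a fitted peak in the window. Srsf2 and Srsf6 peaked at CT 20.01 (amplitude 0.19 ± 0.05) and CT 18.01 (0.20 ± 0.06) (limma, adjusted p = 0.996 for both). Tra2a was among those that peaked outside it, at CT 8.3 (0.07 ± 0.05). None of 5 other subunit genes of the Kcnmb3 channel had a fitted peak in the window. Kcnma1, the pore of that channel, had an amplitude of 0.09 ± 0.05, and Kcnmb1 peaked at CT 6.4 (0.18 ± 0.07) (limma, adjusted p = 0.996 for both). For nephrin, the partners Kirrel and Kirrel3 peaked at CT 9.0 and CT 11.6, with amplitudes of 0.15 ± 0.05 and 0.21 ± 0.05 (limma, adjusted p = 0.996 and 0.946). Retinoic acid partners of Crabp2 numbered 14, with 0 at an unadjusted p under 0.05 in limma and a median amplitude of 0.04, and the same 0 held for 7 Ah receptor genes, 5 thyroid hormone genes and 9 NF-kappaB genes.

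Cell type markers were set beside the members because pools can differ in their share of cells. None of the 34 was in any of the 19 marker lists. The lists' mean differences, high pools minus low pools, ran from -0.08 for 5 horizontal basal cell markers to 0.14 for 9 gland genes. The summed level of the gland genes ran from 13.48 to 15.48 in the high pools and from 13.43 to 15.004 in the low pools on the log2 scale. The mean deviation of that list was lowest at CT12 (-0.89) and highest at CT44 (1.26). Of its 9 genes 4 read higher in the high pools, led by Bpifb9b (10.27 against 9.22) and Bpifb9a (9.72 against 8.87), secreted proteins of glands. The others read lower, most of all Obp2a (10.88 against 11.34) and Obp1a (10.95 against 11.34). Each of these named genes had an adjusted p of 0.996 in limma. For Acta2, 7 other smooth muscle genes had a summed level of 11.48 to 11.73 in the high pools and 11.45 to 11.62 in the low pools. Of the 7, 3 read higher and 4 lower in the high pools, with a mean difference of -0.002. One of them, Myl9, had an unadjusted p under 0.05 (amplitude 0.17 ± 0.05, CT 23.4; limma, adjusted p = 0.996). All 6 endothelial and pericyte markers read higher in the high pools, by a mean of 0.03, beside 40.3% of all genes. Their differences ran from 0.0003 for Pecam1 to 0.11 for Tek, and the list's mean was lowest at CT16, a high pool. Their summed levels were 12.66 to 12.78 in the high pools and 12.61 to 12.77 in the low pools. The part of the cell types in the members' values was not tested.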

How the data were processed

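The authors deposited 1 normalized value per probe and pool, read here as log2 intensities from their range of 3.48 to 14.47. The submitters' processing notes list affy without a role. The background correction and the scaling were not given in the sources used here. Of 34760 probes, 21640 have 1 gene symbol in the platform annotation, and the probe with the highest mean stood for a gene, which left 19937 genes. Column medians lay between 7.81 and 7.92.

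The rule and its fits were run in Python 3.11.15 with numpy 2.4.6, and the tests across all genes in R 4.3.3 with limma 3.58.1 and Benjamini-Hochberg adjustment at 0.05. The tests were tried on simulated data with independent noise and with amplitudes larger than those of most members. That trial does not cover variation shared between genes, or waves as small as most here. Standard errors of amplitudes use limma's moderated variance. Figures were drawn with matplotlib 3.10.9. The members and gene lists were chosen with earlier results of these data known, and the partner lists once the members' names were known. All 34 members are named. The 10 of largest amplitude are given for all pools, and Lmcd1 beside Kcnmb3 and the partner genes named singly were picked after their values were seen. The p-values measure the spread between pools, whose precision is limited by the 12 arrays. Alternatives were other scalings, probe rules, dim gene filters, drift terms, periods, variance models, limits and leaving out pools.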

Additional observations from a re-analysis of the deposited data

How the results depend on the processing

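The median amplitude of the 34 genes was 0.14 to 0.16 with 1 pool left out. Under the alternatives it moved by less than the SD of its values in the single cycles (0.14 and 0.18). Each of 680 single amplitudes moved by less than that gene's spread between pools of a phase. Cycle as a block cannot change an amplitude, nor can the mean of all probes where a gene has 1 probe. A single pool of 12 also has limited weight in it, so nothing is read from those 680. The number of genes that meet the rule, 34, was not stable. It was 99 with quantile normalization, 54 with median centring, 60 with a linear term of time, 59 with cycle as a block, 413 without CT32 and CT56 together, 149 at an R squared of 0.5 or more and 4 at 0.8 or more, and lay between 40 and 121 with 1 pool left out. For a time or cycle term and for fewer pools, the same R squared is easier to reach by construction; for the scalings the cause was not tested. Genes called in the 24 h limma fit numbered 5, with 0 at a period of 22 h (583 at an unadjusted p under 0.05), 2 at 26 h and 3 to 5 with 1 pool left out (3 without CT20, CT24, CT36, CT44 or CT48), and 0 members in any of these fits. In the cycle comparison 0 members were called in limma under all 20 alternatives (0 to 2 at an unadjusted p under 0.05). In the 12 h fit 1 was called with array weights, whose estimate did not converge, and 0 under the other alternatives (1 to 3 at an unadjusted p under 0.05). Pools of a phase taken 24 h apart were paired only through the cycle comparison and the cycle block, since the labels give no replicate numbers.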
